A study of Rattus norvegicus with 12 samples.

Results

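Scn4b, Hcn2, Hcn4, Cacna1g and Cacna1h are genes of sodium, pacemaker and T-type calcium channels, and they are described here across the 4 groups of an RNA-seq study of cultured heart muscle cells. They were chosen by gene symbol, which found 5 of the 18483 genes in the deposited tables, and all 5 passed the filter on low counts that left 13967 genes tested. That choice was made with earlier results of these data known. Shares of all genes given beside counts of the 5 are therefore no test of them as a set. The cells were neonatal rat ventricular myocytes (NRVMs) of Sprague-Dawley rats, taken from minced ventricles with the atria cut away and enriched on a Percoll density gradient. The groups, each of 3 samples, were siNeg (control siRNA, untreated), siNeg PE (control siRNA and phenylephrine), siSlc39a2 (siRNA of a single sequence against the zinc importer Slc39a2, untreated) and siSlc39a2 PE (that siRNA and phenylephrine). PE is an agonist of the alpha-1 adrenergic receptor that makes these cells grow. The sample labels give 36 h of PE, begun after transfection. All cells of all groups were transfected, so an untransfected culture is no part of the comparison, and the pooling of animals is not given in the sources used here.

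The 5 genes act at different steps of the cardiac action potential. Scn4b encodes an auxiliary beta subunit that assembles with the pore of voltage-gated sodium channels, which carry the upstroke in working myocardium. Hcn2 and Hcn4 encode pore subunits of the hyperpolarization-activated channels that open on repolarization, are sensitised by cyclic AMP and carry the pacemaker current. Hcn4 is best known from the sinoatrial node, and both are found in immature ventricle. Cacna1g and Cacna1h encode the pores of T-type calcium channels, which open at low voltage, are prominent in the fetal ventricle and conduction system, and are known for their return in hypertrophied hearts.

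The promoters of Scn4b and Hcn2, which fell in each of the 4 comparisons described next, are shown with the motifs searched in them. Motifs of metal and interferon response were included because the study is about a zinc importer and innate immune genes. The RefSeq promoter table of build GRCr8 matched these 2 of the 5 members, and Hcn4, Cacna1g and Cacna1h are named only. The 250 bases before the annotated start are printed 5′ to 3′ on the strand of the gene, with matches to the searched motifs in capitals. The Scn4b window is chr8:54343623-54343872 (plus strand) and the Hcn2 window is chr7:10639458-10639707 (minus strand).
Scn4b: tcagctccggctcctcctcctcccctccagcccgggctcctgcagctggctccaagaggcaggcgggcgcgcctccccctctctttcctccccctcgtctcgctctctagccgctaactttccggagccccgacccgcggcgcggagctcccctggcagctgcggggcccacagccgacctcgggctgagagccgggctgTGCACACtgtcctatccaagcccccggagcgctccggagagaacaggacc
Hcn2: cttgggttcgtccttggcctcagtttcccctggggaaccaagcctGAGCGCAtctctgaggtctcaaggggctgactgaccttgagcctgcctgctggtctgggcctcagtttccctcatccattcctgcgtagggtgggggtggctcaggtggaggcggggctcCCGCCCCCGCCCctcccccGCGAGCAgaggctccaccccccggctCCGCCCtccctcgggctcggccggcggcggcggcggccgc
Both windows held 71.6% G and C, against a median of 52% over 27457 promoters of the same length. The 4 motifs were searched on both strands, and no match overlapped another. The metal response element is bound by the zinc sensor Mtf1. TGCNCNC, a loose form of its core in which N is any base, matched 1 time in Scn4b, 50 bases before the start. It matched 2 times in Hcn2, at 205 and 66 bases before the start. It was present in 43.9% of all promoters. The GC box, GGGCGG, matched 3 times in Hcn2 (85, 79 and 40 bases before the start) and was not found in the Scn4b window, against 32.4% of all promoters with a match. The core of the interferon-stimulated response element, GAAANNGAA, and the TATA box, TATAAA, were found in neither window, and 7.99% and 13.1% of all promoters held them. These matches describe letters and not sites of binding.

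Total expected counts lay between 24065539 and 28603854 per sample. No pair of replicates was as close as counting alone would make them, with chi-squares of 4.67 to 33.8 per degree of freedom. Slc39a2 had between 50 and 59 counts in siNeg and between 2 and 21 in siSlc39a2, which is a log2 fold change of -2.35 (standard error, SE, 0.46, adjusted p = 9.8e-04 from edgeR), and -2.33 (adjusted p = 2.24e-04) between the groups with PE. Nppa, a hypertrophy marker, rose with PE by a log2 fold change of 4.63 in siNeg cells and 4.56 in siSlc39a2 cells. Nppb rose by 5.19 and 4.71, and Myh7, the slow myosin heavy chain, by 0.57 and 0.54. The Myh7 counts were not whole, and the size of its rise depends on the measure. In FPKM, which are scaled to library total and transcript length, its mean went from 1570 in siNeg to 3068 in siNeg PE. After the knockdown it went from 1858 in siSlc39a2 to 3030 in siSlc39a2 PE. The lowest count behind any value of the 5 channel genes was 280 (Scn4b in siSlc39a2 PE replicate 1).

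All 5 genes passed the test after Slc39a2 knockdown without PE. Scn4b, Cacna1h and Hcn2 fell and Hcn4 and Cacna1g rose (adjusted p below 0.05, edgeR quasi-likelihood test with Benjamini-Hochberg adjustment over the 13967 genes). Of all genes tested, 26.4% were lower and 22.8% higher by the same rule, so calls were common in this comparison. Scn4b alone also passed an absolute log2 fold change above 1, which 5.21% of genes did in the lower direction. For all 5 genes the siSlc39a2 samples did not overlap the siNeg samples in CPM (counts scaled to the TMM-normalized library size), and this held for 58.5% of all genes.

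With PE in siNeg cells, 4 of the 5 genes fell and none rose, against 25.7% of all genes lower and 24% higher. Cacna1g was the exception. No member fell by more than 1 on the log2 scale, where 2.8% of all genes did, and the same 4 genes did not overlap between the groups, against 59.8% of all genes. Between siSlc39a2 PE and siNeg PE, 3 genes fell and 1 rose (28.1% and 29.2% of all genes), Scn4b alone past a log2 fold change of 1 (5.58% of genes lower), and 4 genes did not overlap (63.5% of all genes). With PE after the knockdown, in siSlc39a2 PE against siSlc39a2, all 5 fell (29.3% of all genes lower, 30.7% higher), again with Scn4b alone past 1 (4.17%) and with no overlap for any of the 5 (65.2% of all genes). These 4 comparisons share their groups and are not independent of each other. The interaction, which is the knockdown effect with PE less that without PE, passed for 1 of the 5 genes, Scn4b, against 1.88% of all genes in the lower direction and 3.61% in either.

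**Figure D1:**
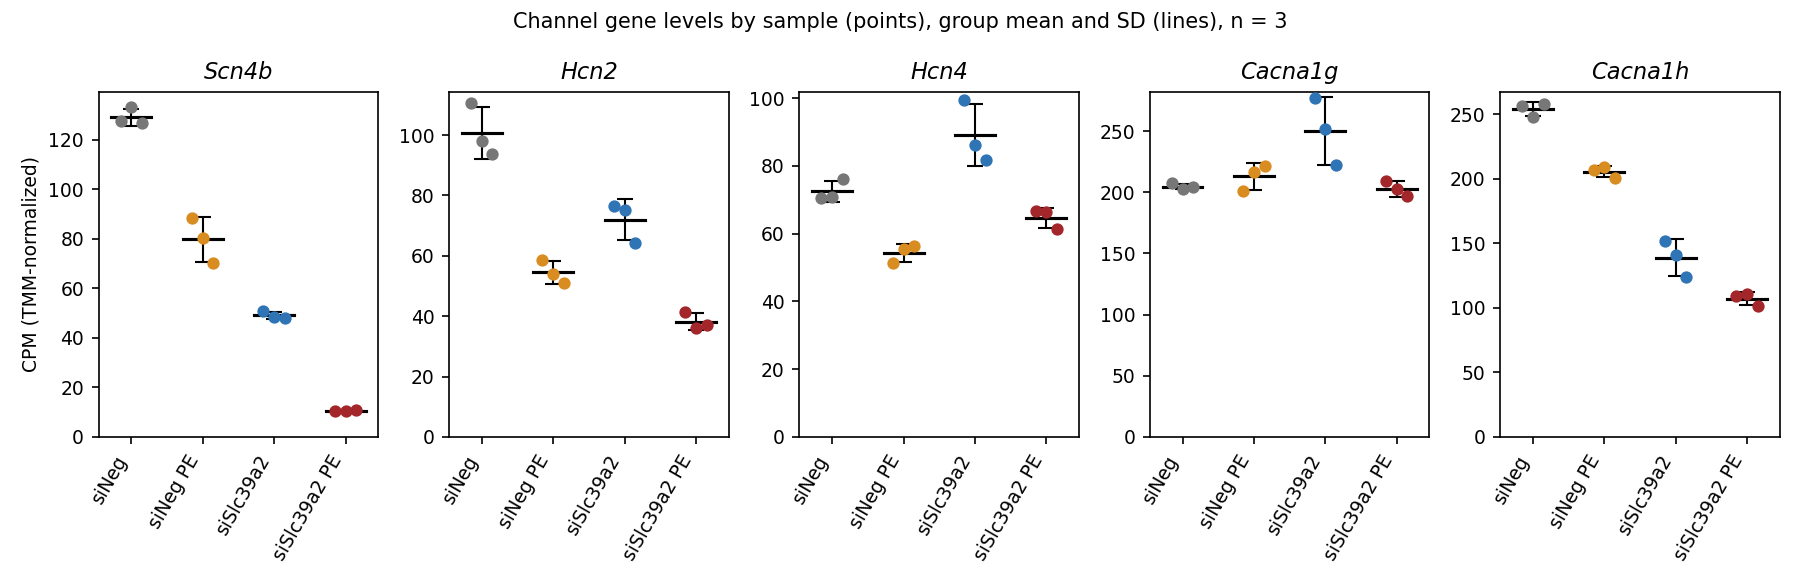
CPM (TMM-normalized, linear axis from 0) of each channel gene in the 12 samples. Points are samples, and lines give the group mean with its SD (n = 3). Scn4b steps down through the groups to 10.6 CPM in siSlc39a2 PE, Hcn4 is highest in siSlc39a2, and the Cacna1g samples of siNeg, siNeg PE and siSlc39a2 PE overlap.

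Scn4b (NCBI gene 315611), a sodium channel beta subunit gene, had 127, 133 and 127 CPM in the siNeg samples, 88.5, 80.4 and 70.3 in siNeg PE, 50.8, 48.5 and 48.1 in siSlc39a2, and 10.4, 10.6 and 10.8 in siSlc39a2 PE. The order of the groups was siNeg, siNeg PE, siSlc39a2 and siSlc39a2 PE, and no group overlapped its neighbour. Knockdown without PE lowered it by a log2 fold change of -1.39 (SE 0.08, adjusted p = 1.4e-08 from edgeR), to 0.381 of the siNeg level. PE in siNeg cells gave -0.69 (SE 0.08, adjusted p = 2.05e-05). Each treatment alone thus lowered Scn4b, the knockdown to a mean of 49.2 ± 1.45 CPM (SD, n = 3) and PE to 79.8 ± 9.11. The knockdown in PE-treated cells gave -2.91 (SE 0.09, adjusted p = 2.48e-11), to 0.133 of the siNeg PE level. PE after the knockdown gave -2.21 (SE 0.08, adjusted p = 1.72e-09). The 3 samples with both treatments were the closest to each other of any group, at a mean of 10.6 ± 0.179 CPM (SD, n = 3). This SD comes from 3 samples of between 280 and 307 counts and is only a rough value of the spread. The interaction was -1.52 (SE 0.11, 95% interval -1.76 to -1.27, adjusted p = 2.13e-05), so the fall with both was larger on the log2 scale than the sum of the separate falls. The knockdown effect on this gene was therefore not the same with and without PE on that scale. In CPM the mean went from 129 to 49.2 with knockdown without PE and from 79.8 to 10.6 with PE. A difference between these falls was not tested on the CPM scale. By p, 3 of the 13967 genes had a stronger interaction, and 123 had a lower log2 value. Scn4b in siSlc39a2 PE was at 8.22% of the siNeg mean, while the product of the separate folds would give 30.4 CPM in place of the 10.6 observed. Among the 13967 genes ordered by FPKM, which adjusts for transcript length, Scn4b stood above 77.8% of genes in siNeg and above 28.2% in siSlc39a2 PE.

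Hcn2 (NCBI gene 114244), a pacemaker channel subunit of ventricular muscle, had 110, 97.9 and 93.8 CPM in siNeg, 76.5, 75.2 and 64.2 in siSlc39a2, 58.5, 53.9 and 51.1 in siNeg PE, and 41.3, 36.2 and 37.1 in siSlc39a2 PE. The groups fell in that order with no overlap between neighbours. Knockdown without PE gave a log2 fold change of -0.48 (SE 0.09, adjusted p = 7.23e-04 from edgeR), and knockdown with PE gave -0.51 (SE 0.09, adjusted p = 4.47e-04). PE gave -0.89 (adjusted p = 1.29e-05) in siNeg cells and -0.91 (adjusted p = 5.65e-06) after the knockdown. For Hcn2 the interaction was -0.03 with a 95% interval of -0.31 to 0.25 (adjusted p = 0.951). The product of the separate folds, 38.9 CPM, lay within the SD of the observed mean of 38.2 ± 2.74 (SD, n = 3).

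Hcn4 (NCBI gene 59266), the leading pacemaker subunit of the sinoatrial node, moved in opposite directions with knockdown and with PE. It had 99.4, 86.3 and 81.8 CPM in siSlc39a2, 70.6, 70.9 and 76.1 in siNeg, 66.6, 66.3 and 61.2 in siSlc39a2 PE, and 51.4, 55.4 and 56.4 in siNeg PE. Neighbours in that order did not overlap. Knockdown raised it by a log2 fold change of 0.30 without PE (SE 0.08, adjusted p = 0.0069 from edgeR) and by 0.25 with PE (SE 0.08, adjusted p = 0.0156). The rise with PE lost its call in 7 of 15 alternative fits, with an adjusted p of up to 0.116, among them those without siNeg PE replicate 1 (0.0637), siSlc39a2 PE replicate 1 (0.0534) or siSlc39a2 PE replicate 2 (0.0536). PE lowered Hcn4 by -0.42 in siNeg cells (SE 0.08, adjusted p = 0.00109) and by -0.46 after the knockdown (SE 0.08, adjusted p = 3.1e-04). The interaction was -0.05 (95% interval -0.29 to 0.19, adjusted p = 0.891). With both, Hcn4 was at 89.2% of its siNeg mean in CPM, and in FPKM these groups overlapped (16.9 to 19.0 in siNeg, 16.0 to 17.4 in siSlc39a2 PE).

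Cacna1g (NCBI gene 29717), a T-type pore gene, had 277, 251 and 222 CPM in siSlc39a2. It had 201, 216 and 222 in siNeg PE, 207, 203 and 204 in siNeg, and 209, 203 and 197 in siSlc39a2 PE. The siSlc39a2 samples were the highest, although their lowest (replicate 3, also the library with the lowest total) lay next to the highest siNeg PE sample, and the other 3 groups overlapped. Knockdown without PE raised Cacna1g by a log2 fold change of 0.29 (SE 0.07, adjusted p = 0.006 from edgeR), and PE after the knockdown lowered it by -0.30 (SE 0.07, adjusted p = 0.00372). PE in siNeg cells gave 0.06 (95% interval -0.10 to 0.22, adjusted p = 0.535), and knockdown with PE gave -0.07 (95% interval -0.23 to 0.09, adjusted p = 0.442). The interaction of -0.36 (SE 0.11, 95% interval -0.59 to -0.13) did not pass after adjustment (adjusted p = 0.0861). It passed in 3 of 20 alternative fits, among them DESeq2 (adjusted p = 0.0249) and the fit without siSlc39a2 replicate 3 (-0.49, adjusted p = 0.0118).

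Cacna1h (NCBI gene 114862), the other T-type pore gene of these cells, had 256, 248 and 258 CPM in siNeg, 207, 209 and 201 in siNeg PE, 152, 141 and 124 in siSlc39a2, and 109, 111 and 101 in siSlc39a2 PE. The groups fell in that order without overlap. Knockdown lowered it by a log2 fold change of -0.87 without PE (SE 0.07, adjusted p = 6.15e-07 from edgeR) and by -0.94 with PE (SE 0.07, adjusted p = 3.11e-07). PE lowered it less, by -0.31 in siNeg cells (SE 0.07, adjusted p = 0.00364) and by -0.37 after the knockdown (SE 0.07, adjusted p = 7.16e-04). The first of these PE values was -0.18 (adjusted p = 0.0755) by limma on log2(count + 1) and kept its call in the other fits. The interaction was -0.07 (95% interval -0.28 to 0.15, adjusted p = 0.815). Cacna1h had fractional counts in 3 samples (6540.94, 5608.96 and 4160.99), so some reads may have been shared with other genes, to an extent the counts do not give. The other 4 members had whole counts throughout.

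**Figure D2:**
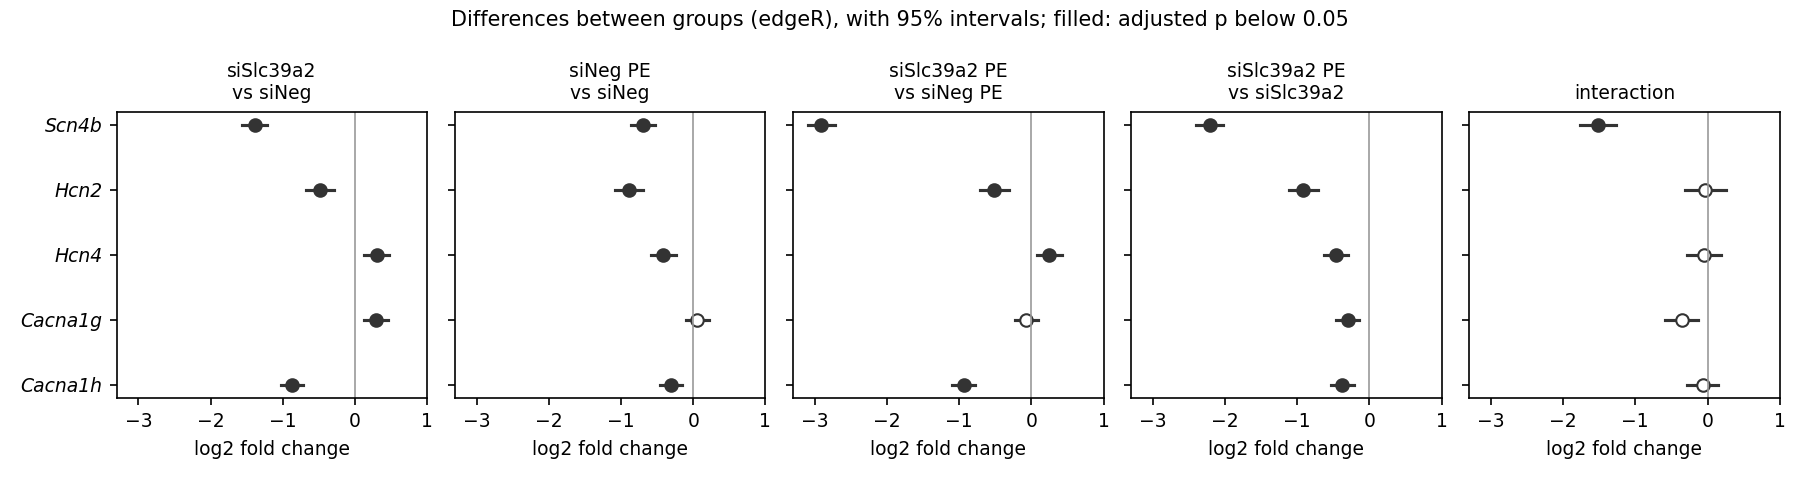
Log2 fold changes from edgeR (horizontal axis) of the 5 channel genes in the 4 comparisons and in the interaction. Bars are 95% intervals, and filled points have an adjusted p below 0.05. Scn4b lies left of the other genes in both knockdown comparisons and in the interaction (-1.52), and the open points are Cacna1g in 2 comparisons and the other 4 genes in the interaction.

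Compared per length, in FPKM, the order of the 5 genes changed between the groups. In siNeg cells Hcn2 was highest at 39.2 FPKM, followed by Cacna1h (30.6), Scn4b (28.4), Cacna1g (24.8) and Hcn4 (17.8), and the samples of neighbours in this order did not overlap. In siSlc39a2 PE cells Cacna1g was highest at 26.1 FPKM. Hcn4 (16.9) and Hcn2 (15.8) overlapped there, and Cacna1h (13.8) and Scn4b (2.49) were lower. With both treatments Cacna1g was at 99.2% of its siNeg mean in CPM, where Hcn2 was at 37.9% and Cacna1h at 42.2%.

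The make-up of the pacemaker family moved from Hcn2 towards Hcn4. The ratio of Hcn4 to Hcn2 in FPKM was 0.403, 0.457 and 0.511 in the siNeg samples, 0.553, 0.647 and 0.696 in siNeg PE, 0.820, 0.724 and 0.804 in siSlc39a2, and 1.02, 1.15 and 1.04 in siSlc39a2 PE. No group overlapped another. Of the summed FPKM of Hcn2, Hcn3 and Hcn4, Hcn2 held 68.6% ± 2.47 (SD, n = 3) in siNeg and 47.9% ± 1.54 in siSlc39a2 PE. The sum itself was 57.1 FPKM in siNeg, 55.3 in siSlc39a2, 36.8 in siNeg PE and 33.0 in siSlc39a2 PE, so it was lower in both groups with PE. FPKM carry no TMM factor, which was 0.927 to 0.960 in siNeg and 1.04 to 1.07 in siSlc39a2. The sums therefore do not show that knockdown left the total unchanged. In CPM the mean of Hcn2 went from 101 in siNeg to 72.0 in siSlc39a2, and that of Hcn4 from 72.5 to 89.2. These ratios and shares were computed after the levels had been seen and were given no test, and an exact permutation test of 3 against 3 samples cannot go below p = 0.1. Hcn3 had between 5 and 27 counts, and its log2 fold change of 1.33 with PE in siNeg cells (adjusted p = 0.0316 from edgeR) came with overlapping groups.

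Within the T-type family the balance moved from Cacna1h towards Cacna1g, mostly with the knockdown. The Cacna1g to Cacna1h ratio in FPKM was between 0.797 and 0.825 in siNeg, 0.972 and 1.12 in siNeg PE, 1.79 and 1.83 in siSlc39a2, and 1.84 and 1.93 in siSlc39a2 PE. None of these ranges overlapped. The summed FPKM of the family was 55.3 ± 0.991 (SD, n = 3) in siNeg, 53.4 ± 2.07 in siNeg PE and 52.0 ± 4.96 in siSlc39a2. These groups overlapped, and the sum was 39.9 ± 1.33 in siSlc39a2 PE. The overlap holds for FPKM, which carry no TMM factor, and sums in CPM were not computed. In CPM the mean of Cacna1h went from 254 in siNeg to 139 in siSlc39a2, and that of Cacna1g from 205 to 250. Cacna1i, the third T-type gene, was too low to be tested, with 11 counts or fewer. The L-type pore gene Cacna1c, the main calcium entry path of ventricular cells, fell with knockdown by -0.29 without PE (adjusted p = 0.00314 from edgeR) and by -0.32 with PE (adjusted p = 0.00132). With PE it gave 0.07 and 0.04, which did not pass. Its counts were not whole in every sample, so some reads may have been shared with other genes. Cacna1d, the L-type pore gene known from nodal cells, had between 5 and 29 counts and fell with knockdown by -0.83 and -1.78 (adjusted p = 0.0344 and 3.83e-04).

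**Figure D3:**
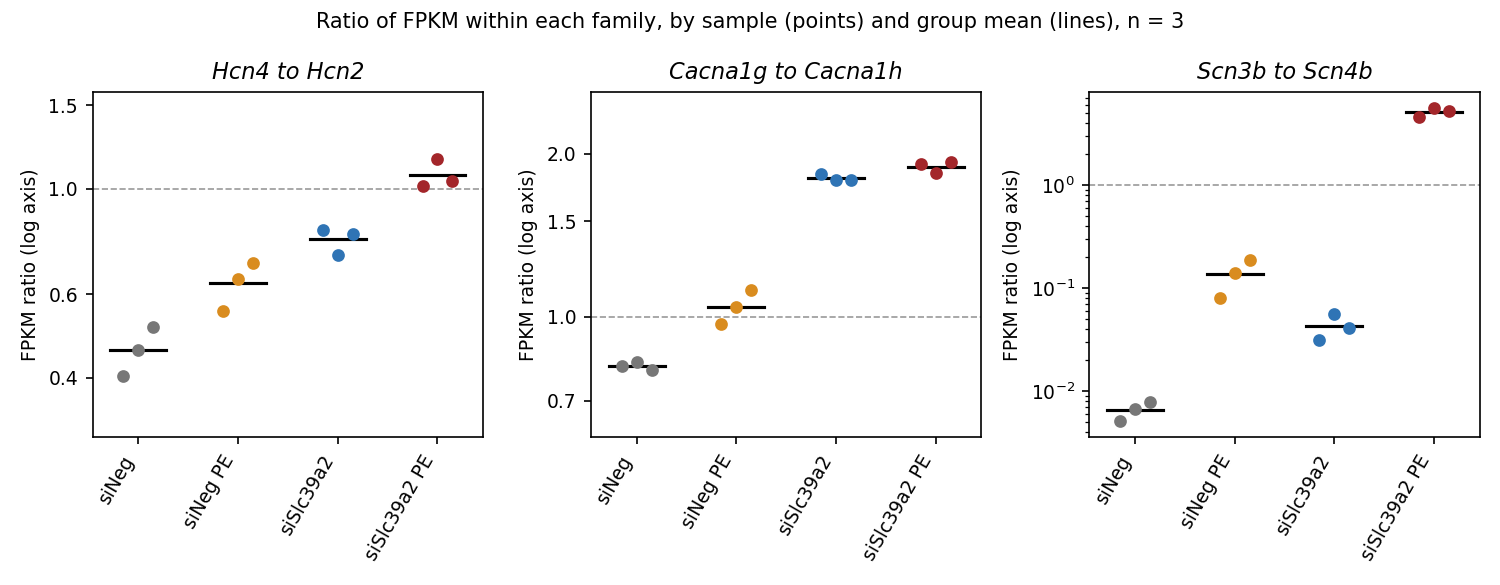
Ratios of FPKM between members of one family in the 12 samples, on log axes. Points are samples, lines are group means (n = 3) and the dashed line marks a ratio of 1. The Hcn4 to Hcn2 ratio crosses 1 in siSlc39a2 PE, the Cacna1g to Cacna1h ratio is near 1.8 in both siSlc39a2 groups, and the Scn3b to Scn4b ratio spans 0.00655 to 5.11 by group mean.

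Among the sodium channel beta subunits, Scn3b moved against Scn4b. Scn3b had between 15 and 22 counts in siNeg, 40 and 70 in siSlc39a2, 171 and 309 in siNeg PE, and 1110 and 1504 in siSlc39a2 PE, with no overlap. Its log2 fold changes were 1.28 with knockdown, 3.60 with PE, 2.37 with knockdown under PE and 4.69 with PE after knockdown (adjusted p = 0.00512, 8.85e-07, 5.56e-07 and 1.3e-08 from edgeR). The interaction of 1.09 did not pass (SE 0.39, adjusted p = 0.17). The ratio of Scn3b to Scn4b in FPKM was 0.00655 ± 0.00136 (SD, n = 3) in siNeg and 5.11 ± 0.533 in siSlc39a2 PE, so the rarer of the pair in siNeg was the more abundant in siSlc39a2 PE. Scn2b fell by -0.43 with PE, -0.63 with knockdown under PE and -0.72 with PE after knockdown.

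The channel genes were set beside longer lists of their pathways, which were also chosen with earlier results of these data known. These lists count the members too: Scn4b among the sodium channels, Hcn2 and Hcn4 among the pacemaker channels, and Cacna1g and Cacna1h among the calcium channels. Of 18 sodium channel genes tested, 2 rose and 5 fell with knockdown, 4 rose and 6 fell with PE, 3 rose and 8 fell with knockdown under PE, and 3 rose and 7 fell with PE after knockdown. Over all genes, 22.8%, 24%, 29.2% and 30.7% rose and 26.4%, 25.7%, 28.1% and 29.3% fell in these 4 comparisons. The sodium genes that rose made up 11.1%, 22.2%, 16.7% and 16.7% of the 18. Those that fell made up 27.8%, 33.3%, 44.4% and 38.9%, so the share that fell with knockdown was near that of all genes. The median log2 fold changes of the 18 were -0.03, -0.21, -0.15 and -0.28 in that order. The median over all genes was between -0.02 and 0.01. Besides Scn4b and Scn3b, Fgf12, a channel-binding homologous factor, fell from between 14.4 and 18.4 CPM in siNeg PE to between 6.42 and 8.65 in siSlc39a2 PE (log2 fold change -1.14, adjusted p = 7.31e-06 from edgeR). Scn4b was the only gene of the 18 with an interaction past the test (5.56%), against 3.61% of all genes in either direction.

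Of 11 genes tested from the list of pacemaker channels, their partners and the adenylyl cyclases that make cyclic AMP, 3 rose and 5 fell with knockdown, 4 rose and 4 fell with PE, 4 rose and 5 fell with knockdown under PE, and 2 rose and 5 fell with PE after knockdown. Those that fell were 45.5%, 36.4%, 45.5% and 45.5% of the 11, against 26.4%, 25.7%, 28.1% and 29.3% of all genes, and those that rose were 27.3%, 36.4%, 36.4% and 18.2%, against 22.8%, 24%, 29.2% and 30.7%. The medians were -0.35, -0.01, -0.10 and -0.06, beside all-gene medians of between -0.02 and 0.01. Adcy1 fell with knockdown under PE from between 25.5 and 37.0 CPM to between 9.88 and 10.9 (log2 fold change -1.57, adjusted p = 3.43e-07 from edgeR). It was the 1 gene of the list with an interaction past the test (-1.15, adjusted p = 0.00222 from edgeR). That is 9.09% of the 11, against 3.61% of all genes in either direction. Adcy5, a main cyclase of heart muscle, fell by -1.03 with knockdown under PE (adjusted p = 5.2e-06 from edgeR). Its counts were not whole, and what this does to the size of its change was not tested. Kcne2, a small partner subunit, had between 2 and 13 counts and passed in no comparison.

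Of 19 genes tested from the voltage-gated calcium channel list, 3 rose and 10 fell with knockdown, 4 rose and 7 fell with PE, 1 rose and 13 fell with knockdown under PE, and 6 rose and 8 fell with PE after knockdown, with medians of -0.35, 0.07, -0.76 and -0.32 beside all-gene medians of between -0.02 and 0.01. Those that fell were 52.6%, 36.8%, 68.4% and 42.1% of the 19, against 26.4%, 25.7%, 28.1% and 29.3% of all genes. Those that rose were 15.8%, 21.1%, 5.26% and 31.6%, against 22.8%, 24%, 29.2% and 30.7%. The interaction passed for 1 of the 19 (5.26%), in the lower direction, against 1.88% of all genes in that direction and 3.61% in either. Cacng6, a gamma subunit gene, fell from between 138 and 166 CPM in siNeg to between 49.1 and 57.4 in siSlc39a2 and to between 16.5 and 20.2 in siSlc39a2 PE. Its log2 fold changes were -1.46 with knockdown and -2.03 with knockdown under PE (adjusted p = 5.6e-06 and 3.83e-07 from edgeR). Stac2, a channel adaptor, fell by -1.86 with knockdown. Cacna1s, the pore gene of skeletal muscle, rose by 2.57 with PE and fell by -1.25 with knockdown under PE, from a mean of 12.6 ± 2.77 to 5.27 ± 0.659 CPM (SD, n = 3). Cacna1b, a neuronal pore gene, fell by -1.32 with knockdown under PE. PE raised Cacnb2, the beta subunit gene of the cardiac L-type channel, by 1.12 and lowered Rrad, a small GTPase that inhibits that channel, by -1.13 in siNeg cells and -1.70 after knockdown.

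Of 28 genes tested from the list of conduction system and fetal gene regulators, 5 rose and 4 fell with knockdown, 4 rose and 9 fell with PE, 3 rose and 8 fell with knockdown under PE, and 6 rose and 12 fell with PE after knockdown, with medians of 0.06, -0.11, 0.06 and -0.08. Those that fell were 14.3%, 32.1%, 28.6% and 42.9% of the 28, against 26.4%, 25.7%, 28.1% and 29.3% of all genes, so fewer fell with knockdown than over all genes and about as many with knockdown under PE. Those that rose were 17.9%, 14.3%, 10.7% and 21.4%, below the 22.8%, 24%, 29.2% and 30.7% of all genes. For the interaction 1 rose and 3 fell (3.57% and 10.7% of the 28), against 1.88% of all genes in the lower direction and 3.61% in either. Irx3, a transcription factor of the ventricular conduction system, fell with PE after knockdown by -1.17, and Hopx, a cofactor without DNA binding of its own, fell by -1.08. Csrp3, a muscle LIM protein, rose by 1.01 with knockdown under PE and by 1.43 with PE after knockdown.

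**Figure D4:**
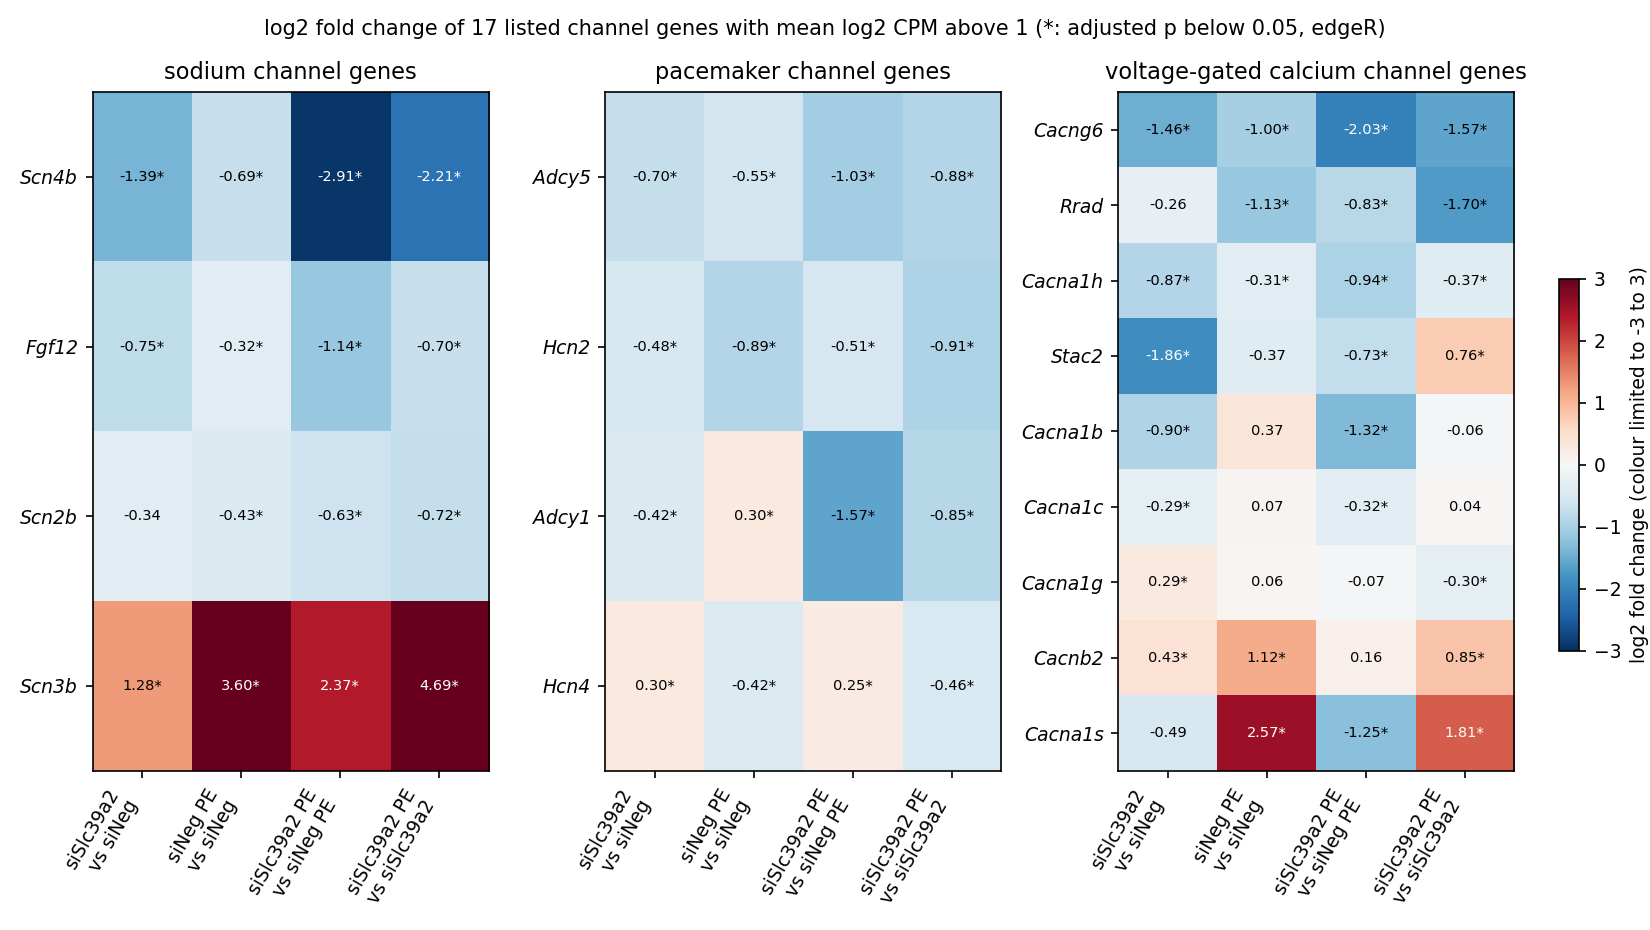
Log2 fold changes from edgeR for those listed channel genes that are named in the text and have a mean log2 CPM above 1, in 4 comparisons (columns). Blue is lower, red is higher, colour is limited to between -3 and 3, and an asterisk marks an adjusted p below 0.05. Scn4b (-2.91) and Scn3b (4.69) hold the extremes of the sodium panel, and Hcn2 is lower while Hcn4 differs in sign between the knockdown and the PE columns.

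The genes whose log2 CPM followed each member most closely over the 12 samples were listed as a description, among about 7990 expressed genes with whole counts. The 12 samples form 4 groups, so these values of Pearson's r are set mostly by the group means. For Scn4b they were Ypel1 (r = 0.991), Bckdhb (0.990) and Hrc (0.986). Hcn2 was followed by Ctdsp2, Rps6ka4 and Bckdha (0.996, 0.996 and 0.994), and Cacna1h by Cic, Vac14 and Ttyh3 (0.997, 0.993 and 0.993). The closest genes were less close for Hcn4 (St3gal1, Mettl17 and Grk6 at 0.977, 0.973 and 0.973) and for Cacna1g (Icoslg, Notch1 and Smg8 at 0.934, 0.881 and 0.869). Over deviations from the group means the same r was lower for each of these genes, between 0.350 for Ypel1 with Scn4b and 0.906 for Cic with Cacna1h.

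Markers of cell types moved with the groups too, and in bulk RNA fewer cells of a type and less RNA per cell cannot be told apart. The 10 cardiomyocyte markers summed to between 57949 and 60229 CPM in siNeg, 61001 and 66486 in siNeg PE, 46842 and 47907 in siSlc39a2, and 61897 and 66638 in siSlc39a2 PE, so the labelled cell type was plain in every sample. Of 8 fibroblast markers, 6 fell and 1 rose with knockdown, both with and without PE, and their sum went from between 13859 and 18345 CPM in siNeg to between 5338 and 5643 in siSlc39a2, 9171 and 11754 in siNeg PE and 3582 and 4949 in siSlc39a2 PE. The fibroblast sums thus lay in the same order of groups as Scn4b and Cacna1h, without overlap. Of 5 tested neuron and Schwann cell markers, 4 fell with knockdown, from a sum of between 18.2 and 22.2 CPM in siNeg to between 10.1 and 10.9 in siSlc39a2, and the defining genes Snap25 and Elavl3 had at most 3 counts in every group. The sum of the nodal markers, which include Hcn4 itself, was between 115 and 127 CPM in siNeg, 92.9 and 102 in siNeg PE, 148 and 165 in siSlc39a2, and 114 and 117 in siSlc39a2 PE. The atrial markers, which include Nppa, summed to between 258 and 275 CPM in siNeg and between 4900 and 5495 in siSlc39a2 PE. Nppa alone had between 99.9 and 120 CPM in siNeg and between 4822 and 5412 in siSlc39a2 PE. It thus made up most of the higher sum, which does not show a rise of the other atrial markers. The smooth muscle and pericyte markers summed to between 2547 and 2652 CPM in siNeg, 1721 and 2130 in siNeg PE, 1076 and 1149 in siSlc39a2, and 1716 and 1834 in siSlc39a2 PE. Of these 8 markers, 7 fell with knockdown without PE, while 2 rose and 1 fell with knockdown under PE. The macrophage markers were low but lay in the same order as Hcn2, with sums of between 22.9 and 28.4 CPM in siNeg, 17.5 and 18.8 in siSlc39a2, 15.5 and 16.5 in siNeg PE, and 11.9 and 13.2 in siSlc39a2 PE, and 3 of 7 fell and 0 rose in each of the 4 comparisons. The endothelial markers summed to between 17.3 and 27.1 CPM over all samples. The part of these cell types in the channel gene results was not tested.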

How the data were processed

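RNA-seq of NRVMs in 4 groups with 3 independent biological replicates per group (12 samples) was analysed from processed values. For 18483 genes the authors deposited unnormalized expected counts, and FPKM, which are scaled to library total and transcript length. Of the counts, 78.7% were whole numbers. The labels name HISAT, Bowtie2 and build Rnor_6.0, with no versions, roles or counting program. That build differs from the GRCr8 of the promoter table, so no position was converted.

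Expected counts were rounded, filtered with filterByExpr (4516 genes left out), normalized by TMM and fitted with edgeR 4.0.16 (R 4.3.3) in one model of 4 groups (8 residual degrees of freedom). Contrasts were tested by edgeR's quasi-likelihood method over 13967 genes, with p-values adjusted after Benjamini and Hochberg and a limit of 0.05. The study's threshold adds an absolute log2 fold change above 1, and its methods name limma. Log2 CPM used a prior count of 2. Pearson's r is over log2 CPM. The fits were tested on simulated data. Alternatives were DESeq2 1.42.0, RLE factors, no filter, the groups of a comparison alone, a replicate block, limma 3.58.1 on quantile-normalized log2 values of FPKM (pseudocounts 1 and 0.1) or of counts (pseudocount 1), and leaving out each sample. With 24065539 to 28603854 counts per sample, intervals come from the fit and cover the spread between these samples. The preparation of the replicates is not given in the sources used here beyond their independence.

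Named genes were the 5 members, Slc39a2, Nppa, Nppb, Myh7, fixed genes of the members' families (some are not reported here), and, from each list and comparison, the 3 genes of largest change past both thresholds (groups apart, mean log2 CPM over 1), with the 3 genes of highest r per member. The members and lists were chosen with earlier results of these data known. The labels give 36 h of PE, and the culture methods a longer time, so samples were grouped by condition. The metal response and interferon motifs were chosen for the study's subject.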

Additional observations from a re-analysis of the deposited data

Results flagged for a closer look

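The effect of Slc39a2 knockdown on Scn4b differed on the log2 scale between cells with and without PE. Its log2 fold change was -2.91 with PE and -1.39 without PE, and the difference of -1.52 passed the test of the interaction (SE 0.11, adjusted p = 2.13e-05 from edgeR). All 3 siSlc39a2 PE samples, at 10.4, 10.6 and 10.8 CPM, lay below the 30.4 CPM that the product of the separate folds would give. The counts behind them were between 280 and 307 per sample. No cause of the difference was tested.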

How the results depend on the processing

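Of 400 member values under the alternatives, 382 kept their direction and their side of the threshold, 8 lost their call, 3 gained one and 7 changed sign. The 8 were the rise of Hcn4 with knockdown under PE (7 settings) and the fall of Cacna1h with PE by limma on counts, and the 3 were the interaction of Cacna1g. The 7 changes of sign were in interactions close to 0, where leaving out each sample in turn gave between -0.15 and 0.025 for Hcn2, between -0.15 and 0.036 for Hcn4 and between -0.19 and 0.0015 for Cacna1h. With a log2 fold change above 1 also required, the members called were 1, 0, 1 and 1 of 5 in the 4 comparisons, and the genes called in all were 1366, 922, 1621, 1469 and, for the interaction, 138, in place of 6873, 6935, 8001, 8378 and 504. For the interaction, DESeq2 called 806 genes and 2 members, limma on log2(FPKM + 1) called 805 genes and, without the filter, 832, and leaving out each sample gave between 255 and 537 genes and between 1 and 2 members (2 without siSlc39a2 replicate 3). The replicate numbers did not pair the samples by the check made: same-numbered samples had correlated deviations of between 0.05 and 0.31 for siNeg and siNeg PE but of between -0.01 and 0.02 for siNeg and siSlc39a2. As a replicate block the numbers gave 1053 genes and 2 members for the interaction (Cacna1g at -0.36, adjusted p = 0.0462 from edgeR). The block changed no other member's call. The cause of these differences was not tested. Depth did not limit the 5 members, with 280 counts or more in each sample, but Hcn3, Cacna1d, Cacna1i and Kcne2 were too low for a firm value.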
